A study of Mus musculus with 34 samples.

Results

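To read out beta-catenin signalling in limb buds that had lost *Hnrnpk*, 10 genes of the canonical Wnt pathway were followed: *Ctnnb1*, *Gsk3b*, *Apc*, *Axin1*, *Axin2*, *Lef1*, *Tcf7*, *Dkk1*, *Sfrp1* and *Sfrp2*. They were taken by name, and each matched 1 row among the 22040 protein-coding genes of the deposited table. The values are FPKM, fragments on the exons of a gene divided by exon length and a size set for the library. They are thus comparable between genes of different length. RNA came from bulk E11.5 mouse limb bud cells in 3 WT and 3 CKO libraries. CKO embryos were *Prrx1-Cre;Hnrnpk* fl/fl, so both *Hnrnpk* alleles were floxed and the Cre recombinase was driven by *Prrx1*, a gene of limb bud mesenchyme. The ectoderm that covers the bud, with its apical ridge, lies outside the domain of this Cre. WT embryos are labelled *Hnrnpk* WT, and whether they carried floxed alleles or Cre is not given in the sources used here. The same holds for whether embryos, or forelimbs and hindlimbs, were pooled in a library.

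In canonical Wnt signalling, secreted Wnt ligands bind Frizzled and LRP receptors, and this stops a complex of APC, AXIN and GSK3 from marking beta-catenin for destruction. Beta-catenin then accumulates, enters the nucleus and switches on target genes together with factors of the TCF/LEF family. In the limb bud, Wnt ligands from the ectoderm act on the mesenchyme beneath it, where they help to keep cells proliferating and to restrain cartilage formation, and the pathway also acts within the apical ridge.

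The libraries held between 17140869 and 24624424 reads on the listed genes, as recovered from the FPKM. The targeted gene, *Hnrnpk*, which encodes the RNA- and DNA-binding protein hnRNPK, had 193, 195 and 185 FPKM in WT replicates 1, 2 and 3 and 127, 142 and 135 FPKM in CKO replicates 1, 2 and 3. The groups did not overlap, and CKO stood at 0.706 times WT (log2 fold change -0.50 ± 0.13 SE, adjusted *p* = 0.334, limma). With the replicate number as a block in limma the adjusted *p* value was 0.0575, and over all alternatives it lay between 0.0237 and 1. The FPKM covers all exons, also those outside the floxed part, and in bulk RNA fewer cells of a type and less RNA per cell cannot be told apart. All 8 mesenchyme markers were detected, with a summed level of 317 to 331 FPKM in WT and 273 to 300.4 FPKM in CKO (exact two-sided permutation test, *p* = 0.1, the smallest that 3 against 3 libraries can give). All 11 ectoderm markers were detected too, with sums of 51.8 to 85.8 FPKM in WT and 57.6 to 92.7 FPKM in CKO. By gene, 7 of the 8 mesenchyme markers had a log2 fold change below 0 (median -0.17). Of the 11 ectoderm markers, 10 were above 0 (median 0.17), beside a median of 0.0048 over all genes tested. No marker of either list had an adjusted *p* value under 0.05 in limma. The part of these shifts in the results was not tested.

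Without pairing of the libraries, no member of the set differed between CKO and WT beyond the spread of the replicates. At an adjusted *p* value under 0.05 in limma, 0 of the 10 genes passed, where 8 of the 12305 genes tested did (0.0650%). At an unadjusted *p* value under 0.05, 0 of 10 passed (8.31% of all genes tested), and with limma voom on the recovered reads 0 of 10 passed at the adjusted threshold (0.0813% of all genes). With the replicate number as a block, 1 of 10 (*Sfrp1*) had an unadjusted *p* value under 0.05, where 18.4% of all genes tested did, and 0 passed at the adjusted threshold (2.81%). The CKO and WT values overlapped in all 10 genes, whereas 14.5% of all genes tested had groups that did not overlap. The 95% interval of the CKO to WT ratio lay within a 2-fold change in either direction for all 10 genes and within a 1.5-fold change for 6 of them (*Ctnnb1*, *Gsk3b*, *Apc*, *Axin1*, *Axin2* and *Lef1*). With the block all 10 intervals lay within a 1.5-fold change. The median log2 fold change of the 10 genes was -0.0081, beside 0.0048 over all genes tested, and the median size of the change was 0.08, beside 0.14.

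**Figure D1:**
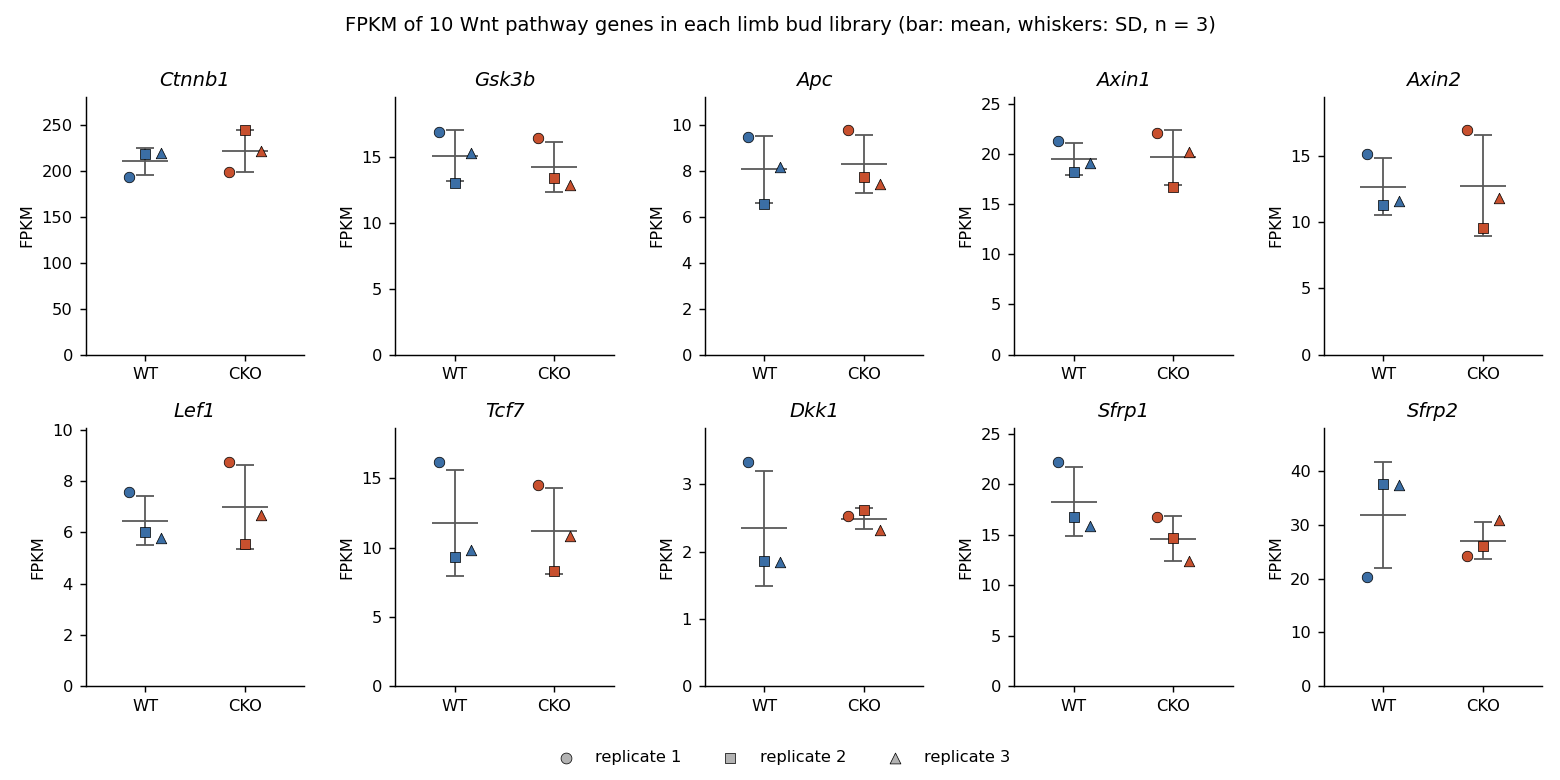
FPKM of the 10 genes (y axis, from 0) in each WT (blue) and CKO (orange) limb bud library. Circles, squares and triangles are replicates 1, 2 and 3, the horizontal bar is the mean and the whiskers are the SD (n = 3). The groups overlap in every panel, and in 7 panels both circles lie above the other 4 points.

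*Ctnnb1* encodes beta-catenin, which carries the Wnt signal to the nucleus and also links cadherins to the cytoskeleton. It lies on the plus strand of chr9:120929216-120960507 (GRCm38, GENCODE vM21) and had 194, 219 and 220 FPKM in WT and 199, 244 and 222 FPKM in CKO replicates 1, 2 and 3. Replicate 1 was the lowest library in both groups, and CKO was above WT within all 3 numbers, as in 18.2% of all genes tested, but the ranges overlapped. The log2 fold change was 0.07 with a 95% interval of -0.27 to 0.42 (adjusted *p* = 0.930), which is a CKO level between 0.827 and 1.33 times WT. Of its exon length, 759 bases are shared with exons of *Ulk4* on the opposite strand, and whether the reads were counted by strand is not given in the sources used here.

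The other effectors belong to the destruction complex. *Gsk3b*, which encodes a kinase that phosphorylates beta-catenin (chr16:38089001-38246084, plus strand), had 16.95, 13.1 and 15.3 FPKM in WT and 16.5, 13.4 and 12.9 FPKM in CKO. *Apc*, which encodes a scaffold of the complex and lies on chromosome 18, had 9.46, 6.54 and 8.17 FPKM in WT and 9.75, 7.73 and 7.42 FPKM in CKO. *Axin1*, the constitutive axin scaffold (chr17:26138688-26195811, plus strand), had 21.3, 18.2 and 19.1 FPKM in WT and 22.1, 16.7 and 20.2 FPKM in CKO. For each of these genes the 2 highest libraries were the replicate 1 libraries, 1 from each genotype. The log2 fold changes were -0.08 for *Gsk3b* (adjusted *p* = 0.920), 0.05 for *Apc* (adjusted *p* = 0.964) and 0.0026 for *Axin1* (adjusted *p* = 0.997). The 95% interval of the CKO level ran from 0.743 to 1.20 times WT for *Gsk3b*, from 0.781 to 1.37 times for *Apc* and from 0.801 to 1.25 times for *Axin1*. The mRNA of *Ctnnb1* and of these genes is no measure of beta-catenin protein, whose amount is set by degradation.

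*Axin2*, *Lef1* and *Tcf7* are the members that read the nuclear output. *Axin2* encodes an inducible axin and is a widely used direct target of beta-catenin that feeds back on the pathway (chr11:108920349-108950783, plus strand). It had 15.2, 11.3 and 11.6 FPKM in WT and 16.96, 9.56 and 11.8 FPKM in CKO. The means were 12.7 ± 2.13 FPKM and 12.8 ± 3.79 FPKM (SD, n = 3), with the highest value of each group in replicate 1. The log2 fold change was -0.02 with a 95% interval of -0.53 to 0.50 (adjusted *p* = 0.989), or 0.691 to 1.41 times WT. With the replicate block the interval narrowed to 0.834 to 1.17 times WT (adjusted *p* = 0.945). Within the numbers, CKO was above WT in 2 of 3 pairs, by 0.16 and 0.02 on the log2 scale for replicates 1 and 3, and the difference was -0.24 for replicate 2.

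*Lef1*, which encodes a TCF/LEF factor that is itself a target of the pathway (chr3:131110471-131224356, plus strand), had 7.55, 6.02 and 5.77 FPKM in WT and 8.75, 5.52 and 6.68 FPKM in CKO. Its log2 fold change was 0.10 (95% interval -0.35 to 0.54, adjusted *p* = 0.925). *Tcf7*, which encodes TCF1, another factor of this family (chr11:52252371-52283014, minus strand), had 16.2, 9.34 and 9.80 FPKM in WT and 14.5, 8.32 and 10.8 FPKM in CKO. Both of its replicate 1 libraries stood above the other 4, and the groups overlapped. Its log2 fold change was -0.06 (95% interval -0.68 to 0.56, adjusted *p* = 0.971), and the replicate block narrowed the interval to -0.30 to 0.18. *Axin2* and *Lef1* share 209 and 1208 exonic bases with antisense transcripts, whose reads could not be told apart from theirs without strand.

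TCF/LEF proteins bind short sites whose core reads CTTTGA or CTTTGT, and these letters were searched on both strands in the RefSeq promoter windows of the members (GRCm38.p6, 250 bases before to 50 bases after the start site). *Apc*, *Axin1* and *Sfrp1* had no entry, which left 7 genes. *Ctnnb1*, *Lef1* and *Tcf7* had 2, 4 and 2 windows, and only 1 window per gene is reported. The start sites used for *Ctnnb1* and *Lef1* lie 4184 and 148 bases from the 5′ ends of these genes in GENCODE vM21. The letters were found in 2 of the 7 windows reported, those of *Dkk1* and *Gsk3b*. They were found in 31.2% of all 32851 windows of the same length, where a gene can have more than 1. The 2 motifs differ in their last letter, so no stretch counts as both. The stretches that hold them are shown 5′ to 3′ on the strand of the gene, with the motif or its reverse complement in capitals. Positions are those of the first capital relative to the start site.
Dkk1 at -174 (chr19:30549653-30549682, minus strand): gaggggagagtgTCAAAGtcctccctgctt
Dkk1 at -117 (chr19:30549596-30549625, minus strand): ctcctcccaaagCTTTGAaatcccatcccg
Dkk1 at -98 (chr19:30549577-30549606, minus strand): atcccatcccggCTTTGTtgtcttccctga
Gsk3b at -77 (chr16:38088912-38088941, plus strand): cttctccccgccTCAAAGagggaggggagg
The RefSeq start of *Dkk1* lies 169 bases from the 5′ end of the gene in GENCODE vM21, so the stretches at -117 and -98 are exonic in GENCODE. The 250 bases before the start of *Axin2* are shown as well, since this gene is the usual read-out of the pathway.
Axin2 upstream (chr11:108920099-108920348, plus strand): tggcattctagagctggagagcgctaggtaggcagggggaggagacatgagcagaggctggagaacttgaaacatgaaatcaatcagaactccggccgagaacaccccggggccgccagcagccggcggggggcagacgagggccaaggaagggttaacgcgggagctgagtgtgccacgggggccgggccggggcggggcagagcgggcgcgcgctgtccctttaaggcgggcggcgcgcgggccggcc
It has no capitals because neither motif was found in it. The 7 windows were rich in G and C, at 60.7% for *Dkk1* to 76.3% for *Tcf7*, beside a median of 52.7% over all windows. A match of letters is a description of the sequence, and no binding was measured for it here.

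The secreted inhibitors were read next. *Dkk1* encodes a Dickkopf protein that blocks the LRP5 and LRP6 receptors and is also switched on by the pathway (chr19:30545863-30549665, minus strand). It was the lowest of the 10 genes, with 3.34, 1.86 and 1.85 FPKM in WT and 2.53, 2.63 and 2.32 FPKM in CKO, on 98 to 146 and 111 to 134 recovered reads. WT replicate 1 stood above all other libraries, and the 3 CKO values lay between it and the other WT values. The log2 fold change was 0.13 (95% interval -0.41 to 0.68, adjusted *p* = 0.918). It was 0.40 without WT replicate 1 (adjusted *p* = 0.383) and between -0.0051 and 0.18 when any other library was left out. With replicates 2 and 3 alone it was 0.39 (adjusted *p* = 0.101, the lowest over all alternatives, which reached 1).

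*Sfrp1* and *Sfrp2* encode secreted Frizzled-related proteins, which bind Wnt ligands outside the cell. *Sfrp1* (chr8:23411502-23449632, plus strand) had 22.2, 16.8 and 15.9 FPKM in WT and 16.8, 14.7 and 12.4 FPKM in CKO. CKO was below WT within each replicate number, by -0.40, -0.19 and -0.36 on the log2 scale, a pattern that 21.3% of all genes tested had, but the highest CKO value lay within the WT range. The log2 fold change was -0.32 (95% interval -0.72 to 0.08, adjusted *p* = 0.696). The replicate block left the value as it was and gave an interval of -0.54 to -0.09 with an adjusted *p* value of 0.125, above the threshold. When 1 library was left out, the value lay between -0.42 without CKO replicate 1 and -0.17 without WT replicate 1.

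*Sfrp2* (chr3:83766321-83774316, plus strand) had 20.4, 37.7 and 37.5 FPKM in WT and 24.2, 26.2 and 31.0 FPKM in CKO. WT replicate 1 was the lowest library of all, and the other 2 WT libraries were the highest. The log2 fold change over all libraries was -0.18 (95% interval -0.75 to 0.39, adjusted *p* = 0.889). In replicates 2 and 3 alone, *Sfrp2* fell by 0.40 on the log2 scale (95% interval -0.66 to -0.14, adjusted *p* = 0.0342). When 1 library was left out, the value lay between -0.48 without WT replicate 1 and -0.035 without WT replicate 2, with no adjusted *p* value under 0.326. *Sfrp2* was the only member past the threshold in replicates 2 and 3 alone, where 15.0% of all genes tested passed. Over all alternatives its adjusted *p* value lay between 0.0342 and 1, and the replicate 1 pair went the other way, with CKO above WT by 0.25. *Sfrp2* shares 347 exonic bases with an antisense transcript.

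**Figure D2:**
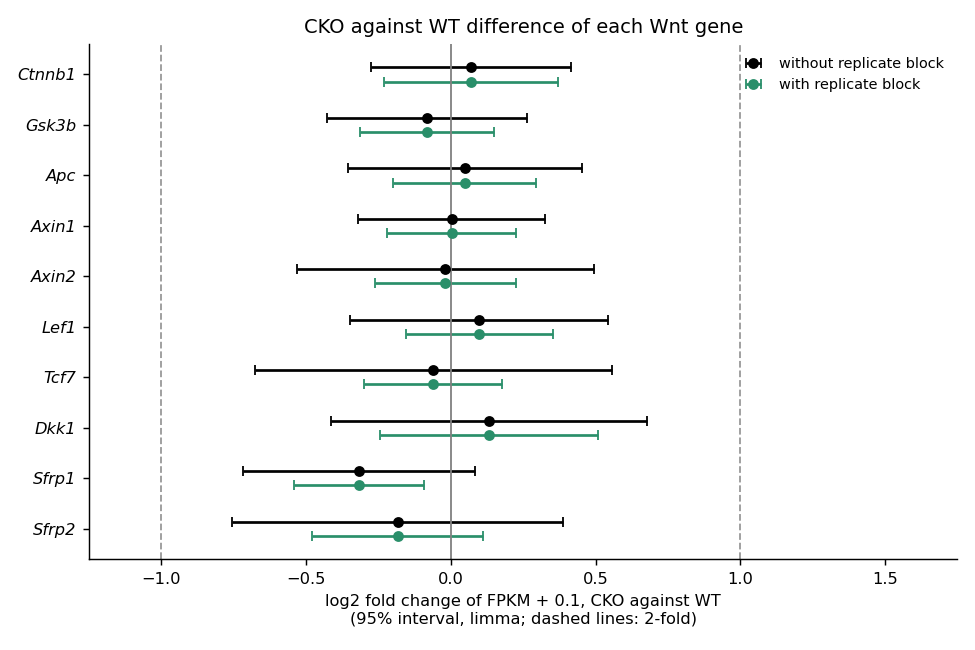
Log2 fold change of FPKM + 0.1 between CKO and WT (x axis) for the 10 genes, with the 95% interval from limma without (black) and with (green) the replicate number as a block, 3 libraries per group. Dashed lines mark a 2-fold change, and all black intervals lie between them and cross 0, while the green interval of *Sfrp1* runs from -0.54 to -0.09.

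The order of the levels, which FPKM allows because it is scaled to length, was the same in WT and CKO. In WT, *Ctnnb1* stood first with 211 ± 14.9 FPKM (SD, n = 3), followed by *Sfrp2* with 31.9 ± 9.94, *Axin1* with 19.5 ± 1.59 and *Sfrp1* with 18.3 ± 3.44 FPKM. *Gsk3b*, *Axin2* and *Tcf7* came next with 15.1 ± 1.95, 12.7 ± 2.13 and 11.8 ± 3.83 FPKM, and *Apc*, *Lef1* and *Dkk1* were last with 8.05 ± 1.46, 6.45 ± 0.964 and 2.35 ± 0.856 FPKM. In WT the ranges of neighbours in this order overlapped except between *Ctnnb1* and *Sfrp2* and between *Lef1* and *Dkk1*. In CKO the ranges of *Sfrp2* and *Axin1* did not overlap either.

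The libraries of both genotypes were then compared by replicate number. Both replicate 1 libraries stood above the other 4 in 7 of the 10 genes (*Gsk3b*, *Apc*, *Axin1*, *Axin2*, *Lef1*, *Tcf7* and *Sfrp1*), a pattern seen in 23.0% of all genes tested. *Tcf7* was 1.69 times as high in WT replicate 1 as in the mean of WT replicates 2 and 3, and 1.52 times in CKO. The same ratios were 1.32 and 1.59 for *Axin2* and 1.28 and 1.43 for *Lef1*. *Dkk1* had 1.80 in WT and 1.02 in CKO, and *Sfrp2* had 0.542 and 0.848. The median log2 difference between replicate 1 and the mean of the others over the 10 genes was 0.36 in WT and 0.32 in CKO, beside -0.02 and -0.01 over all genes tested.

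An F test of the replicate number in limma, with the genotype in the model and chosen after the data were seen, called 3 of the 10 genes at an adjusted *p* value under 0.05, where 19.0% of all genes tested passed. They were *Tcf7* (adjusted *p* = 0.0048), *Axin2* (adjusted *p* = 0.0174) and *Sfrp2* (adjusted *p* = 0.0394). *Sfrp1* and *Lef1* had adjusted *p* values of 0.0520 and 0.0573. The number, which takes up more degrees of freedom than the genotype, held between 51.2% (*Dkk1*) and 94.9% (*Tcf7*) of the sum of squares of a gene over the 6 libraries. The genotype held 39.6% for *Sfrp1* and 10.2% or less for every other member. Neither the labels nor the study's methods say what a shared number stands for.

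Other measures moved with the replicate number too. The 11 ectoderm markers summed to 51.8 and 57.6 FPKM in the replicate 1 libraries of WT and CKO and to 73.8 to 92.7 FPKM in the other 4, but they did not move as 1 class. In both groups 7 of them were lower in replicate 1 than in the mean of the others, and *Krt5*, *Krt14*, *Krt8* and *Perp*, genes of the surface epithelium, passed the F test of the number. *Fgf8*, the growth factor gene of the apical ridge, went the other way, with 10.6 FPKM in WT replicate 1 against 6.87 and 6.89 and 10.5 FPKM in CKO replicate 1 against 7.31 and 9.10 (adjusted *p* = 0.0305). *Sp8*, another ridge gene, was at 1.29 and 1.24 times the mean of the others in WT and CKO without passing (adjusted *p* = 0.381), and *Trp63* was at 1.01 and 0.971 times. *Grhl2* was at 1.17 and 0.821 times in WT and CKO. Of the 11 ectoderm markers, only *Fgf8* and *Sp8* were thus higher in replicate 1 of both groups, and *Trp63* and *Grhl2* were mixed. Globin genes took 13.7% and 11.7% of the FPKM in the replicate 1 libraries and 19.5% to 32.4% in the others. The sum of the mesenchyme markers in replicate 1 stood at 0.974 times the mean of the other libraries in WT and at 1.05 times in CKO. These markers did not move as 1 class either. In both groups 4 of them were higher in replicate 1 than in the mean of the others, and 3 were lower. *Lhx2*, at 1.43 and 1.39 times in WT and CKO, was the only one to pass the F test of the number (adjusted *p* = 0.0146). The replicate 1 libraries were also the shallowest, with 17219114 and 17140869 reads against 20869690 to 24624424 in the others. The part of these measures in the difference was not tested.

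**Figure D3:**
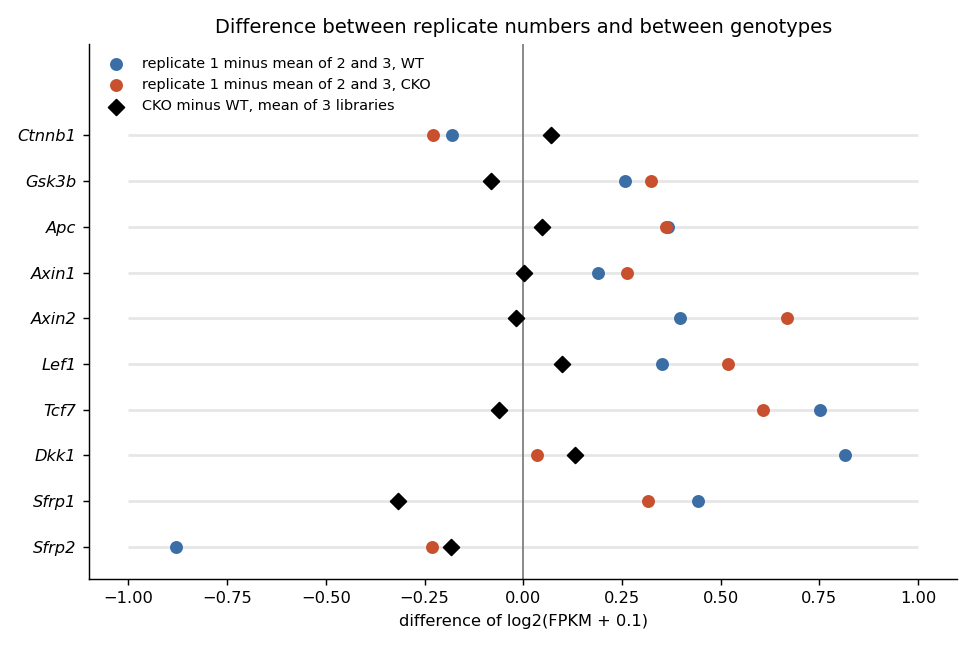
Differences of log2(FPKM + 0.1) for the 10 genes: replicate 1 minus the mean of replicates 2 and 3 within WT (blue circles) and within CKO (orange circles), and CKO minus WT over 3 libraries each (black diamonds). *Tcf7* lies at 0.75 and 0.61 for the number and at -0.06 for the genotype.

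Genes whose profile was most like that of *Axin2* or *Lef1* were sought among the 7431 tested genes with a mean of at least 5 FPKM, by Pearson's *r* of log2(FPKM + 0.1) over the 6 libraries. For *Axin2* they were *Ampd2*, *Smurf1*, *Spata2*, *Mllt6* and *Zfp553*, with *r* from 0.996 to 0.998. For *Lef1* they were *Zkscan17*, *Yy1*, *Msi1*, *Chaf1a* and *Srsf5*, in the same range. None of these is a member or stands on a Wnt list used here. The 6 libraries share depth and scaling, and the replicate 1 libraries sit apart from the rest for *Axin2* and *Lef1*, so these values also hold that split.

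The rest of the pathway was read from 7 lists of 100 further genes, of which 83 were tested. None of the 83 passed at an adjusted *p* value under 0.05 in limma, 6 had an unadjusted *p* value under 0.05 (1 higher in CKO, where 2.84% of all genes tested were, and 5 lower, where 5.46% were), and 0 passed with voom (0.0813% of all genes). The groups did not overlap in 2 genes that were higher and 8 that were lower in CKO, where 5.63% and 8.86% of all genes tested did so. Their median log2 fold change was -0.05, with 29 above 0 and 54 below, beside 6264 above and 6041 below over all genes tested. The counts by sign depend on the scaling: the receptors went from 6 above and 10 below to 2 and 14 and the transducers from 7 and 9 to 4 and 12 with globin-free total scaling, and the ligands from 2 and 12 to 5 and 9 with quantile normalization. With the replicate block, 5 of the 83 passed: *Sp5* was higher in CKO, and *Wnt5b*, *Rspo1*, *Rspo4* and *Dkk2* were lower. Over all genes tested, 1.13% were higher and 1.68% lower at this threshold.

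Of the Wnt ligands and R-spondins, 14 of 23 were tested, with 2 log2 fold changes above 0 and 12 below. R-spondins are secreted proteins that raise the level of Wnt receptors at the cell surface. *Rspo1* had 1.92, 1.70 and 0.994 FPKM in WT and 0.798, 0.701 and 0.649 FPKM in CKO, so all CKO libraries were below all WT libraries. Its log2 fold change was -0.96 ± 0.26 SE (adjusted *p* = 0.358, with the block 0.0281), on 26 to 30 reads in CKO and 42 to 79 in WT. *Rspo4* had 6.88, 1.85 and 1.97 FPKM in WT and 3.73, 1.48 and 1.01 FPKM in CKO, with replicate 1 far above the other libraries in both groups. CKO was lower within each number, and the log2 fold change was -0.69 ± 0.59 SE (adjusted *p* = 0.836, with the block 0.0393). It depended on single libraries, at -0.094 when WT replicate 1 was left out, at -0.31 when CKO replicate 3 was and at -1.20 when CKO replicate 1 was, and it stood at -0.61 in replicates 2 and 3 alone.

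*Wnt5b*, a ligand that acts mostly outside the beta-catenin branch, had 6.33, 6.69 and 5.56 FPKM in WT and 4.43, 3.92 and 4.52 FPKM in CKO. The groups did not overlap, and the log2 fold change was -0.52 ± 0.13 SE (adjusted *p* = 0.324, with the block 0.0458). Its relative *Wnt5a*, the most abundant ligand and one required for limb outgrowth, ranged from 23.7 to 33.01 FPKM in WT and from 23.8 to 31.2 FPKM in CKO, with a log2 fold change of -0.02 (adjusted *p* = 0.980).

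Of 18 receptors and co-receptors, 16 were tested, with 6 log2 fold changes above 0 and 10 below. *Fzd2*, a Frizzled receptor and the most abundant of them, had 45.9, 55.0 and 50.04 FPKM in WT and 44.9, 38.5 and 40.7 FPKM in CKO. The groups did not overlap, by a narrow margin, and the log2 fold change was -0.28 ± 0.13 SE (adjusted *p* = 0.614, with the block 0.229).

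All 16 transducers were tested, with 7 above 0 and 9 below. *Gsk3a*, which encodes the other GSK3 kinase, was the most abundant of them, with 48.1, 50.3 and 44.6 FPKM in WT and 38.8, 30.6 and 40.5 FPKM in CKO. All CKO libraries were below all WT libraries, and the log2 fold change was -0.39 ± 0.14 SE (adjusted *p* = 0.549, with the block 0.117). Its paralogue *Gsk3b*, described above, had a log2 fold change of -0.08.

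The nuclear partners of beta-catenin had 1 log2 fold change above 0 and 11 below among the 12 tested, with a median of -0.16, and none passed with or without the block. *Pygo2*, a co-activator and the most abundant of them, ranged from 21.3 to 24.9 FPKM in WT and from 19.0 to 24.9 FPKM in CKO (log2 fold change -0.03). *Ctnnbip1*, whose product keeps beta-catenin from binding TCF factors, had 17.9, 20.7 and 20.8 FPKM in WT and 16.9, 14.3 and 17.8 FPKM in CKO, with a log2 fold change of -0.28 ± 0.13 SE (adjusted *p* = 0.635).

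Of 14 further secreted inhibitors, 10 were tested, with 4 above 0 and 6 below. *Dkk2*, a relative of *Dkk1*, had 1.77, 5.37 and 5.64 FPKM in WT and 1.51, 2.55 and 2.46 FPKM in CKO. Replicate 1 was the lowest library in both groups, the opposite of the pattern of *Tcf7* and *Axin2*, and CKO was below WT within each number. The log2 fold change of *Dkk2* was -0.81 ± 0.43 SE over all libraries (adjusted *p* = 0.692, with the block 0.0312). In replicates 2 and 3 alone, with 2 libraries per group, it was -1.11 (adjusted *p* = 9.09e-07 in limma, with a range up to 1 over all alternatives). In that fit 15.0% of all genes tested passed. When 1 library was left out, the value for *Dkk2* lay between -1.34 without WT replicate 1 and -0.53 without WT replicate 3. *Dkk3*, a divergent Dickkopf gene, had 1.73, 2.38 and 2.42 FPKM in WT and 1.497, 1.35 and 1.70 FPKM in CKO, without overlap (log2 fold change -0.48, adjusted *p* = 0.552). *Frzb*, a Wnt-binding inhibitor of developing cartilage, was the most abundant, at 28.7 to 32.8 FPKM in WT and 31.9 to 40.5 FPKM in CKO (log2 fold change 0.21, adjusted *p* = 0.739).

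Among the feedback and target genes, 9 of 10 were tested, and their median log2 fold change was 0.06, which became -0.04 when the libraries were scaled to their total without globin genes. *Sp5*, a zinc-finger factor that is a direct target of beta-catenin, had 0.555, 0.298 and 0.546 FPKM in WT and 1.47, 0.696 and 0.919 FPKM in CKO. All CKO libraries were above all WT libraries, at 1.96 times WT (log2 fold change 0.97 ± 0.32 SE, adjusted *p* = 0.480, with the block 0.0458). These values rest on 15 to 25 reads per WT library and 28 to 56 per CKO library. *Ccnd1*, which encodes cyclin D1 and was the most abundant of this list, ranged from 55.8 to 63.1 FPKM in WT and from 60.9 to 68.4 FPKM in CKO (log2 fold change 0.10, adjusted *p* = 0.867).

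The cadherins and catenins that bind beta-catenin at the membrane had 3 log2 fold changes above 0 and 3 below among the 6 tested. *Ctnna1*, which encodes alpha-catenin, ranged from 84.6 to 103 FPKM in WT and from 88.3 to 97.5 FPKM in CKO (log2 fold change 0.01). *Cdh2*, which encodes N-cadherin, had 10.3 to 11.2 FPKM in WT and 8.90 to 10 FPKM in CKO, without overlap (log2 fold change -0.20, adjusted *p* = 0.703).

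**Figure D4:**
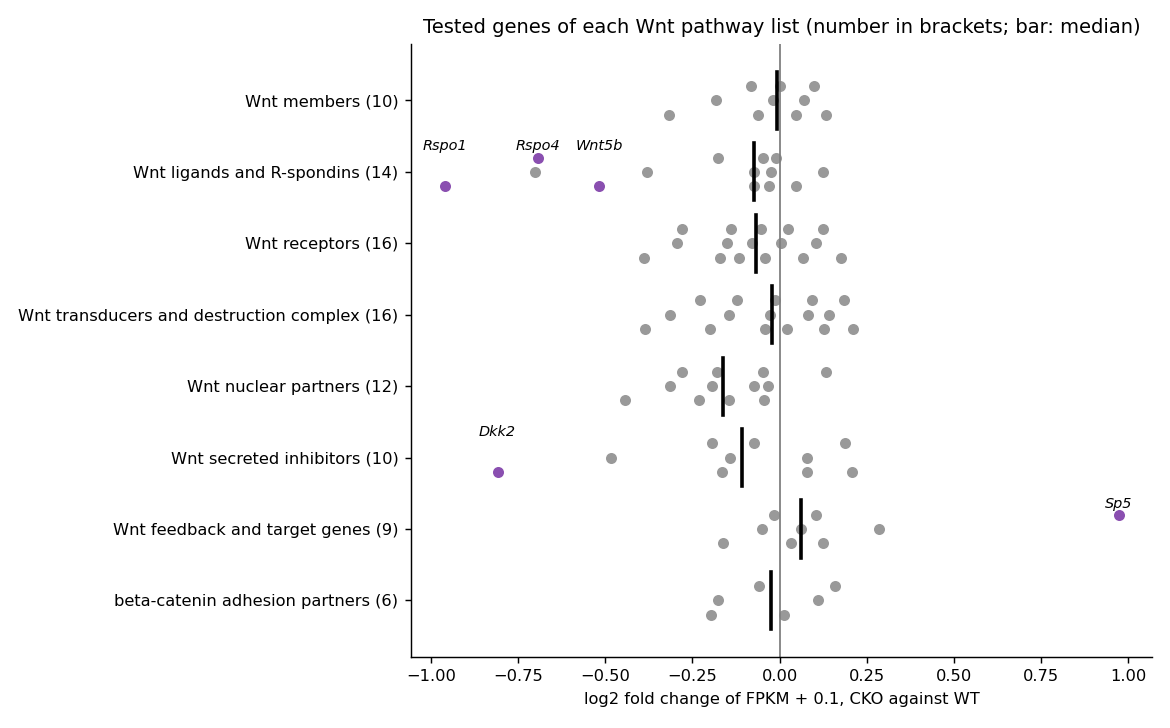
Log2 fold change of FPKM + 0.1 between CKO and WT (x axis) for every tested gene of the 10 members and of 7 further Wnt lists, with the number tested in brackets and the median of each list as a black bar. The 5 genes in purple had an adjusted p value under 0.05 with the replicate block in limma; the members' median is -0.0081.

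**Figure D5:**
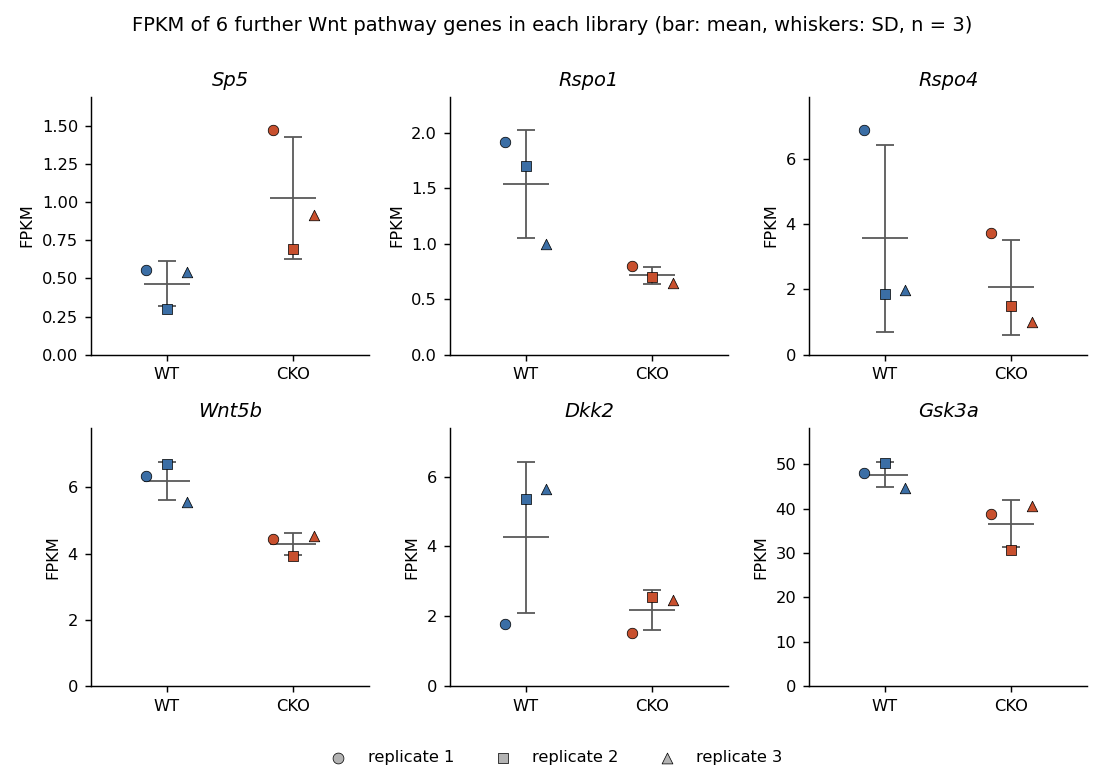
FPKM (y axis, from 0) of 6 further pathway genes in each WT (blue) and CKO (orange) library. Circles, squares and triangles are replicates 1, 2 and 3, bars are means and whiskers are SD (n = 3). The groups do not overlap for *Sp5*, *Rspo1*, *Wnt5b* and *Gsk3a*, and do for *Rspo4* and *Dkk2*.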

How the data were processed

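RNA-seq from limb bud cells of 3 WT and 3 CKO embryonic samples was used, and the chromatin samples (Hi-C, CUT&RUN and ATAC-seq) were not analysed here. The authors made libraries with a stranded mRNA kit and deposited 1 table of FPKM for protein-coding genes, with a column per library. The submitters' processing notes name cutadapt 2.5, HISAT2 2.1.0, featureCounts 1.6.3 and mm10, without saying which data each served. The annotation and the strand setting are not given in the sources used here. The labels name replicates by number alone, so *p* values measure the spread between these samples, which may in part be technical.

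GENCODE vM21 (GRCm38) held 99.5% of the gene identifiers. For 92.6% of these, FPKM times merged exon length and a fitted library size came out as whole reads in all 6 libraries, within 0.1 reads. The depths given are these reads. The fitted size was below them in CKO replicate 2 (19146568 against 21190297) and CKO replicate 3 (23848028 against 24624424). It was thus not their plain total, and how it was set is not given in the sources used here. Median-ratio factors of the FPKM lay between 0.986 and 1.01, so that alternative scaling changed the comparison of CKO with WT little. With it the F test of the replicate number called 5 members instead of 3. Counts were recovered only for an alternative, because the deposited unit is FPKM.

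The test took genes whose FPKM averaged 0.5 or more, and log2(FPKM + 0.1) was compared between CKO and WT with limma 3.58.1 (lmFit, eBayes with trend) in R 4.3.3. Fold changes are on this scale, which understates the change of low genes. Benjamini-Hochberg adjustment ran over every gene tested, with a threshold of 0.05, and none was adjusted over a list. For summed marker levels the test was an exact permutation test, two-sided. The 10 members and the lists were chosen with earlier results of these data known, so no list is independent evidence. From each pathway list, the text names the genes past the threshold with or without the replicate block, the most abundant gene, and the gene with the largest change without overlap between groups.

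WT and CKO share replicate numbers. The deviations of same-numbered libraries from their group means correlated across genes at 0.64, 0.44 and 0.27 for numbers 1, 2 and 3. All were over 0.1, but WT replicate 2 correlated with CKO replicate 3 at 0.49 and WT replicate 3 with CKO replicate 2 at 0.31. The replicate 1 libraries thus deviated together, while numbers 2 and 3 could not be matched by this check. The reported fit nevertheless has no block, because the study names none, and the fit with the number as a block is given beside it where it changes a call or a count. Genes are not independent replicates, the labels name no pairing, and this check sets apart number 1 alone. Results with the block rest on pairing numbers 2 and 3 as well.

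As alternatives, the pseudocount was set to 0.5 or 1, the filter was dropped or raised to a mean of 1, and the rest were median-ratio, quantile and globin-free total scaling, eBayes without the trend, the replicate block, each library left out, replicates 2 and 3 alone, and limma voom on the recovered reads with and without the block. The fit of replicates 2 and 3 alone has 2 libraries per group. The F test of the replicate number was added after the data were seen. Sequences are from RefSeq promoter windows on GRCm38.p6.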

Additional observations from a re-analysis of the deposited data

How the results depend on the processing

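Over 467 comparisons of a log2 fold change with an alternative in 26 genes, 412 kept their direction and their side of the threshold, 22 passed it newly and 33 changed sign, none of them past the threshold in either fit. The 10 members gave 0 calls under every alternative except replicates 2 and 3 alone, which gave 1 (*Sfrp2*). With the replicate block, which pairs libraries by number, the calls rose from 8 to 346 over all genes (2.81% of 12305). Over the 83 tested genes of the other Wnt lists they rose from 0 to 5. Replicates 2 and 3 alone gave 1851 (15.0%) over all genes and 18 over these lists. Voom with the block gave 628 of 12294 genes and 6 on these lists. The 6 were the 5 that passed in limma with the block and *Fzd1*, a Frizzled receptor gene (adjusted *p* = 0.0497 in voom with the block). The log2 fold change of *Fzd1* in the reported fit was -0.39. Quantile normalization gave 14 over all genes and scaling to the total without globin genes 4, and leaving out 1 library gave 1 to 23, the most without CKO replicate 1. Globin-free scaling moved the median of all genes to -0.0998, and there *Ctnnb1* stood at -0.036, *Apc* at -0.058, *Axin1* at -0.10, *Lef1* at -0.0070, *Ccnd1* at -0.0030 and *Ctnna1* at -0.094. All of these but *Axin1* lie above that median. Under quantile normalization *Ctnnb1* was at -0.073, *Axin1* at -0.024 and *Ctnna1* at -0.089, and *Axin1* was at -0.022 in replicates 2 and 3 alone.

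When 1 library was left out, log2 fold changes ranged from -0.0019 to 0.15 for *Ctnnb1*, from -0.19 to 0.0037 for *Gsk3b*, from -0.092 to 0.17 for *Apc*, from -0.085 to 0.11 for *Axin1*, from -0.24 to 0.17 for *Axin2*, from -0.075 to 0.25 for *Lef1*, from -0.26 to 0.19 for *Tcf7*, from -0.0051 to 0.40 for *Dkk1*, from -0.15 to 0.092 for *Wnt5a*, from -0.11 to 0.083 for *Pygo2* and from -0.045 to 0.097 for *Ctnna1*. The F test of the replicate number, which called 3 members, called 1 without the filter (2.93% of all genes tested) and 1 without the trend (7.57%), 5 at a mean FPKM of at least 1 (21.3%) and 5 with median-ratio scaling (19.5%), 7 with globin-free scaling (24.4%), 6 with voom (23.3%) and 0 without replicate 1 of both groups (0.479%). The cause of these changes was not tested. With 3 libraries per group the size of a change is known no more closely than the intervals given.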
